A study of Homo sapiens with 21 samples.

Results

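The comparison asked what a full-length but mutated EWS domain still did to gene expression when it was set against no EWS domain at all. It used 6 of the 21 RNA-seq libraries of the series, 3 from A673 cells that received the construct DAF and 3 from A673 cells that received Δ22, and members were taken by those sample labels alone. A673 is an established Ewing sarcoma cell line. All 6 cultures received the iEF shRNA on day 1, which is aimed at the fusion transcript EWS/FLI, and then a retroviral cDNA on day 5. Selection with puromycin (2 µg/ml) and hygromycin (400 µg/ml) ran until day 16. DAF carries tyrosine to alanine changes in the repeats of the amino-terminal EWS portion and keeps that portion at full length, whereas Δ22 (delta22 in the labels) lacks the EWS portion. Both keep the FLI portion and a FLAG tag. The groups used for orientation were iLuc (luciferase shRNA with an empty vector, so that the endogenous fusion remained), iEF (fusion shRNA with an empty vector), WT-EF (fusion shRNA with wildtype EWS/FLI), mut9 (fusion shRNA with a shortened EWS portion whose tyrosines are intact) and DAF-mut9 (mut9 with its repeat tyrosines changed to alanine), each with 3 libraries. Replicates are numbered 1 to 3 in the labels and come from this 1 line, so p-values measure the spread between these libraries.

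EWS/FLI joins the disordered amino-terminal part of EWS, rich in serine, tyrosine, glycine and glutamine, to the ETS DNA-binding part of FLI1. The FLI portion recognises GGAA motifs at ETS sites. Long runs of the unit, known as microsatellites, are bound by the fusion, a property that the EWS portion adds. The EWS portion recruits chromatin remodellers and the transcription machinery, and it binds itself through its tyrosines. Ewing sarcoma cells depend on the fusion, which raises many genes and lowers others.

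Depth was similar across the 6 libraries, with 32.9 to 46.2 M gene counts each, so that 1 CPM (count per 1 M gene counts) stood for 32.0 to 43.6 counts. The 10 Ewing sarcoma markers had a summed level of 1730 to 1921 CPM in DAF and 1485 to 1779 CPM in Δ22. Single markers differed widely in level, and NKX2-2 was low in both groups. CD99, which lies in a stretch shared by the X and Y chromosomes, was near 0 at 0.0387 CPM and 0.129 CPM. The 11 of 15 blood and epithelial markers that could be tested summed to 4.97 to 5.22 CPM in DAF and 3.57 to 4.59 CPM in Δ22, with CD14 (log2 1.23 ± 0.27, adjusted p = 0.0261, lost without DAF 1, 2 or 3 or Δ22 1 or 3 at 0.0524 to 0.181) and CD79A (log2 1.89 ± 0.41, adjusted p = 0.0264, lost without DAF 2 or 3 or Δ22 1 or 2 at 0.0723 to 0.233) called higher in DAF, and CD3E, CD3D, MS4A1 and HBB too low to be tested. CD14 and CD79A did not pass with limma on the ComBat-adjusted values (adjusted p = 0.081 and 0.207). In these libraries fewer expressing cells and less RNA per cell cannot be told apart.

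The level of the constructs was read from FLI1, since the FLI portion is part of both. FLI1 stood at 36.2, 39.8 and 35.1 CPM in DAF and at 41.3, 45.2 and 62.0 CPM in Δ22. Every DAF library was therefore below every Δ22 library. The log2 difference was −0.40 ± 0.13 (SE) and did not pass the threshold over all genes (adjusted p = 0.246, edgeR quasi-likelihood test). An exact two-sided permutation test of this single gene gave p = 0.1, the smallest value that 3 against 3 libraries allow. Against iEF, FLI1 was higher by 0.84 ± 0.13 (adjusted p = 0.000365) on the log2 scale in DAF and by 1.25 ± 0.13 (adjusted p = 4.85e-05) in Δ22. EWSR1 was at 253, 261 and 269.7 CPM in DAF and 245, 245 and 216 CPM in Δ22, a log2 difference of 0.15 ± 0.09 (adjusted p = 0.747). Reads of the endogenous genes, the fusion and the cDNAs are not told apart by these counts. The part of the FLI1 level in the differences given here was not tested.

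Of 30549 genes tested, 297 (0.972%) differed between DAF and Δ22, and 241 of them (81.1%) were higher in DAF. These 241 genes were 0.789% of those tested, and the 56 genes lower in DAF were 0.183%. The median log2 difference of the raised genes was 1.46, that of the lowered genes was −1.0, and the median of all genes tested was −0.02. A change of at least 2-fold was met by 184 raised and 28 lowered genes. The 3 DAF and 3 Δ22 libraries did not overlap for 290 of the 297 genes, beside 13.4% of all genes tested, and 296 had the same direction in all 3 replicate sets. Both counts rest on the libraries that made the calls, so they describe the called genes and do not support the calls. Among the raised genes 202 were protein-coding and 22 were long non-coding RNAs, and among the lowered genes 51 and 4. Of the 29538 tested genes with a symbol 16417 were protein-coding. Shares called over all genes tested are therefore lower than those over protein-coding genes, which make up most of the gene lists below. An unadjusted p below 0.05 was reached by 2577 genes. The gene just inside the threshold had an adjusted p of 0.0498 and the one just outside 0.0522. Of the 297 genes, 115 (38.7%) kept their call whichever of the 6 libraries was omitted, and 28 lost it whichever was omitted. The count of called genes moved more than 1.5-fold when 1 library was left out, to 170 without DAF 2, 179 without DAF 3, 170 without Δ22 1, 189 without Δ22 2 and 193 without Δ22 3, each with fewer samples. A gene is given as lost without a library where that fit took its adjusted p past 0.05, with the adjusted p it then had. The count was 475 (348 higher, 127 lower) with DESeq2, 682 (442 and 240) when only the 6 libraries were fitted and 906 (616 and 290) with no filter on low counts. The raised genes were highest in library 2 of their group more often than all genes tested, 58.9% against 31.9% in DAF and 61.0% against 28.6% in Δ22, and the part of this in the calls was not tested.

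**Figure D1:**
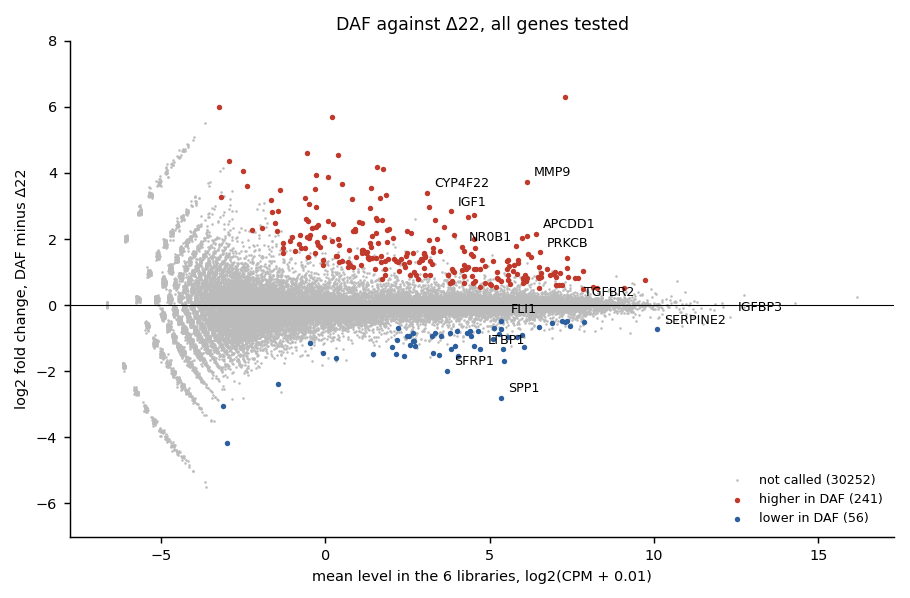
Each point is 1 of the 30549 genes tested, with the mean level in the 6 libraries as log2(CPM + 0.01) on the x axis and the log2 fold change of DAF minus Δ22 on the y axis. Red marks the 241 genes called higher in DAF, blue the 56 called lower and grey the rest. The red points outnumber the blue and reach further from 0, while FLI1, TGFBR2 and IGFBP3 lie among the grey points.

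Known EWS/FLI-activated genes held the largest share of calls among the 25 gene lists examined. Of 38 such genes tested, 12 rose and 0 fell, which is 31.6% beside 0.789% of all genes, and their median log2 difference was 0.48. Ewing sarcoma markers, a list of 10 that overlaps this one, had 3 raised members. Both lists were chosen with results of these libraries known and are not independent evidence of a direction.

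NR0B1, an orphan nuclear receptor needed for growth of Ewing sarcoma cells and a textbook microsatellite target, was at 19.9, 38.0 and 24.1 CPM in DAF and 6.64, 12.1 and 5.28 CPM in Δ22. The lowest DAF library was above the highest Δ22 library, and in both groups the second replicate set was the highest. The fitted difference was 3.42-fold, or 1.77 ± 0.28 (adjusted p = 0.00112) on the log2 scale. iEF held 16.4 ± 6.26 CPM (SD, n = 3), between both constructs. Against iEF the log2 difference was 0.74 ± 0.27 (adjusted p = 0.104) for DAF and −1.03 ± 0.27 (adjusted p = 0.0473) for Δ22. The genes FCGRT, STEAP2, PRKCB and SLCO5A1 had the smallest adjusted p of the list.

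FCGRT, the neonatal Fc receptor that salvages antibodies, stood at 32.4, 37.5 and 39.2 CPM in DAF and 10.3, 11.5 and 10.9 CPM in Δ22, a 3.34-fold difference (log2 1.74 ± 0.18, adjusted p = 1.19e-05). PRKCB, a protein kinase C, was at 128, 164 and 123.4 CPM against 38.5, 53.7 and 44.7 CPM, a 3.03-fold difference (log2 1.60 ± 0.19, adjusted p = 5.27e-05). STEAP2, a metalloreductase of the plasma membrane, was at 106, 127 and 106 CPM against 34.8, 47.5 and 40.8 CPM, 2.76-fold apart (log2 1.46 ± 0.15, adjusted p = 1.19e-05). In each of these genes the libraries of a group lay close together and far from the other group. SLCO5A1, an organic anion transporter of the solute carrier families, rose 2.15-fold to 138, 156 and 142 CPM (log2 1.10 ± 0.11, adjusted p = 7.86e-06). STEAP1, a relative of STEAP2, rose 1.88-fold (log2 0.91 ± 0.16, adjusted p = 0.004). The transcription factor PAX7 rose from 5.60, 4.24 and 5.33 CPM to 8.54, 12.4 and 12.3 CPM (log2 1.14 ± 0.26, adjusted p = 0.0384, lost without DAF 2 or 3 or Δ22 1, 2 or 3 at 0.0732 to 0.25). The 12 were completed by GSTM4 (1.11, lost without DAF 1 or 3 or Δ22 1, 2 or 3 at 0.0784 to 0.219), IL1RAP (0.62, lost without DAF 2 or 3 or Δ22 1 or 3 at 0.0862 to 0.141), LOXHD1 (2.57), MYOM2 (1.36, lost without DAF 1 or 3 or Δ22 1 or 3 at 0.0539 to 0.156) and NPY1R (1.17, lost without DAF 2 or Δ22 1 or 3 at 0.0692 to 0.0914), each with its log2 difference. GSTM4 has near-identical paralogs, so its counts are uncertain. LOXHD1 and PAX7 did not pass with limma on the ComBat-adjusted values (adjusted p = 0.0505 and 0.2).

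The remaining 26 activated targets did not pass the test, though 33 of all 38 had a difference above 0, beside 47.3% of all genes, and 20 of the 38 an unadjusted p below 0.05. NKX2-2, a homeobox repressor required for transformation, was at 1.501, 1.81 and 2.38 CPM in DAF and 1.51, 1.28 and 1.16 CPM in Δ22, and the groups overlapped (log2 0.54 ± 0.26, adjusted p = 0.619). In iLuc it held 8.98 ± 1.76 CPM. Against iEF it was higher in DAF, with a log2 difference of 1.00 ± 0.27 (adjusted p = 0.0265), while that of Δ22 was 0.47 ± 0.28 (adjusted p = 0.495).

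GGAA runs near gene starts were counted because EWS/FLI binds them. The motif was 4 or more consecutive copies of GGAA on either strand. The window ran from 5000 bases before to 1000 bases after the annotated start in GRCh37. A run that crossed its edge was counted only up to the edge. Overlapping starts of neighbouring genes can share a run. Such a run was found for 26 of 235 raised genes with a symbol (11.1%), 2 of 55 lowered genes (3.64%) and 2.29% of the 29538 tested genes with a symbol. Of the raised genes 20 had the run before the start. Runs of at least 10 copies were found for 14 raised genes (5.96%) and 0.630% of all genes. Runs of 4 or more within 1000 bases of the start were found for 5.53% of raised and 0.504% of all genes, and runs of 10 or more there for 2.98% and 0.122%.

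The raised genes with a run were mostly those that the endogenous fusion also raised. Of 151 genes higher in DAF and in iLuc, 24 (15.9%) had a run, against 2 of 84 raised genes (2.38%) not higher in iLuc and 3.39% of the 5572 genes higher in iLuc. Among protein-coding genes the shares were 9.41% of the raised and 2.49% of those tested. The split by iLuc and the protein-coding shares were added after the data were seen. A run is a feature of the reference sequence, and its length in A673 was not measured.

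Counted within the window, the runs of raised genes had 4 to 17 copies, and 17 of the 26 had 6 or more. The runs of 10 raised genes and of both lowered genes are shown 5′ to 3′ from the GRCh37 genome on the strand that reads GGAA. The unbroken run inside the window is in capitals and 15 flanking bases are in lower case, to let long and short runs be compared.
NR0B1 (chrX:30328860-30328933, minus strand): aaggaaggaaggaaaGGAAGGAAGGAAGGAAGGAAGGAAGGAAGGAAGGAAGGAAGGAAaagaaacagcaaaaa
GSTM4 (chr1:110196876-110196945, plus strand): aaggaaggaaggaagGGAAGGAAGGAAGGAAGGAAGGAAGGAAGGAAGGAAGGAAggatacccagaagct
CES1 (chr16:55869576-55869645, plus strand): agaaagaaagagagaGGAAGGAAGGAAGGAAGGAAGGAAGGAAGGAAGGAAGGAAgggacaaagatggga
VAV1 (chr19:6771791-6771852, plus strand): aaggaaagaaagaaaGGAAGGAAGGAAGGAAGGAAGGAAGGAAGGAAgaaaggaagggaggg
AMER2 (chr13:25748906-25748979, minus strand): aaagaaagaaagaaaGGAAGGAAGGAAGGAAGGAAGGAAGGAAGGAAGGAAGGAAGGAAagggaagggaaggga
APELA (chr4:165794483-165794568, plus strand): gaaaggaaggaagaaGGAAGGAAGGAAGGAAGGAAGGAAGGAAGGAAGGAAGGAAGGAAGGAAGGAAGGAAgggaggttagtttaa
EPOR (chr19:11495367-11495448, minus strand): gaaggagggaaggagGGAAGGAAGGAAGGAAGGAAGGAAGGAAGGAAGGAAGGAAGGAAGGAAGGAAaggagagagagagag
FEZF1-AS1 (chr7:121943512-121943605, plus strand): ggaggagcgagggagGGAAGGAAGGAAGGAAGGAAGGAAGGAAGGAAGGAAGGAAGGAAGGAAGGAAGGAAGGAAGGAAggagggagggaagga
TRHDE (chr12:72478621-72478674, minus strand): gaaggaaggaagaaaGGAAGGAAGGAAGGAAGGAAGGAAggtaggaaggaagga
ISM2 (chr14:77964146-77964191, plus strand): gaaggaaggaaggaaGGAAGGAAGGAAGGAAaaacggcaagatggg
SLAIN1 (chr13:78267692-78267773, minus strand): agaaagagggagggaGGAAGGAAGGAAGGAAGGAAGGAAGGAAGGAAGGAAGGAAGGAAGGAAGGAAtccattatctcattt
SERPINE2 (chr2:224908780-224908837, minus strand): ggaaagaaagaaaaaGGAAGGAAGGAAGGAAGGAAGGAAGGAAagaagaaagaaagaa
NR0B1 has 11 unbroken copies whose far end lies 1411 bases before its start, GSTM4 10 copies at 1830 bases, CES1 10 at 2381 bases and AMER2 11 at 2538 bases. VAV1, a signalling protein of blood cells, has 8 copies at 913 bases before its start and rose from 4.28, 6.92 and 5.35 CPM to 13.3, 19.2 and 18.2 CPM (log2 1.63 ± 0.27, adjusted p = 0.00196). EPOR, the erythropoietin receptor, has 13 copies at 415 bases and rose by 1.42 ± 0.25 (adjusted p = 0.004, lost without Δ22 2 at 0.0524). FEZF1-AS1 has the longest run shown, 16 copies at 185 bases, and rose by 1.74 ± 0.24 (adjusted p = 0.00031). Within the bases shown, further consecutive copies precede the counted runs of NR0B1, GSTM4, APELA, TRHDE and ISM2. Single copies stand in the flanks of some other genes. AMER2, a regulator of Wnt signalling, was at 30.8, 48.9 and 41.0 CPM in DAF, 16.7, 23.6 and 12.3 CPM in Δ22 and 410.0 ± 87.7 CPM in iLuc. Its difference was 1.19 ± 0.24 (adjusted p = 0.0132, lost without DAF 2 or 3 or Δ22 1 or 3 at 0.0513 to 0.112) on the log2 scale. APELA has 14 copies at 3832 bases before its start, and TRHDE 6 at 2410 bases. The 4 copies counted for ISM2 begin 983 bases after its start and reach the edge of the window. Further copies are joined to them in the flank shown and were not counted, so the run of ISM2 is longer than 4 copies. Of the lowered genes, SLAIN1 (log2 −0.47 ± 0.11, adjusted p = 0.0314, lost without DAF 1, 2 or 3 or Δ22 2 or 3 at 0.093 to 0.206) has 13 copies at 4115 bases, as many as EPOR, and SERPINE2 has 7 at 4787 bases. Genes with a run were singled out for these sentences after their values were seen.

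**Figure D2:**
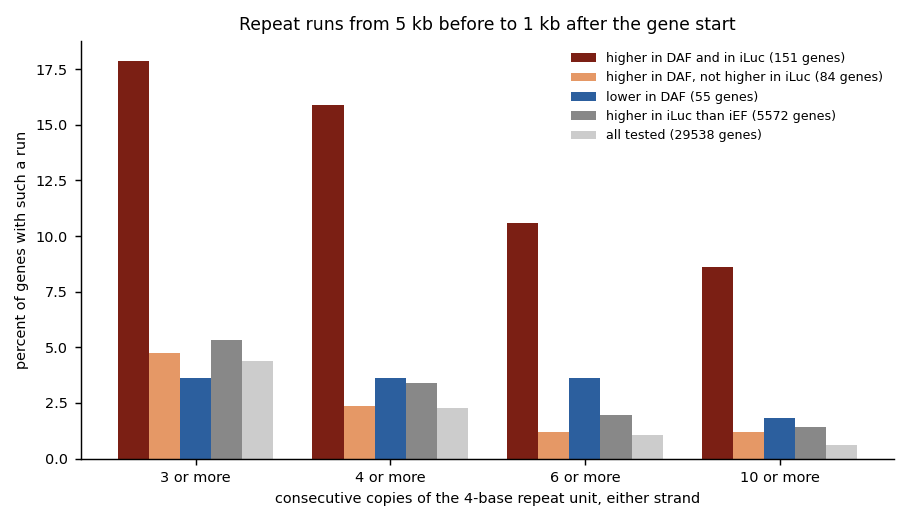
Bars give the percent of genes with a run of at least 3, 4, 6 or 10 consecutive repeat units from 5 kb before to 1 kb after the gene start, for raised genes that were or were not higher in iLuc, lowered genes, all genes higher in iLuc and all genes tested. At 4 or more units the first bar is at 15.9% and the others lie between 2.29% and 3.64%.

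**Figure D3:**
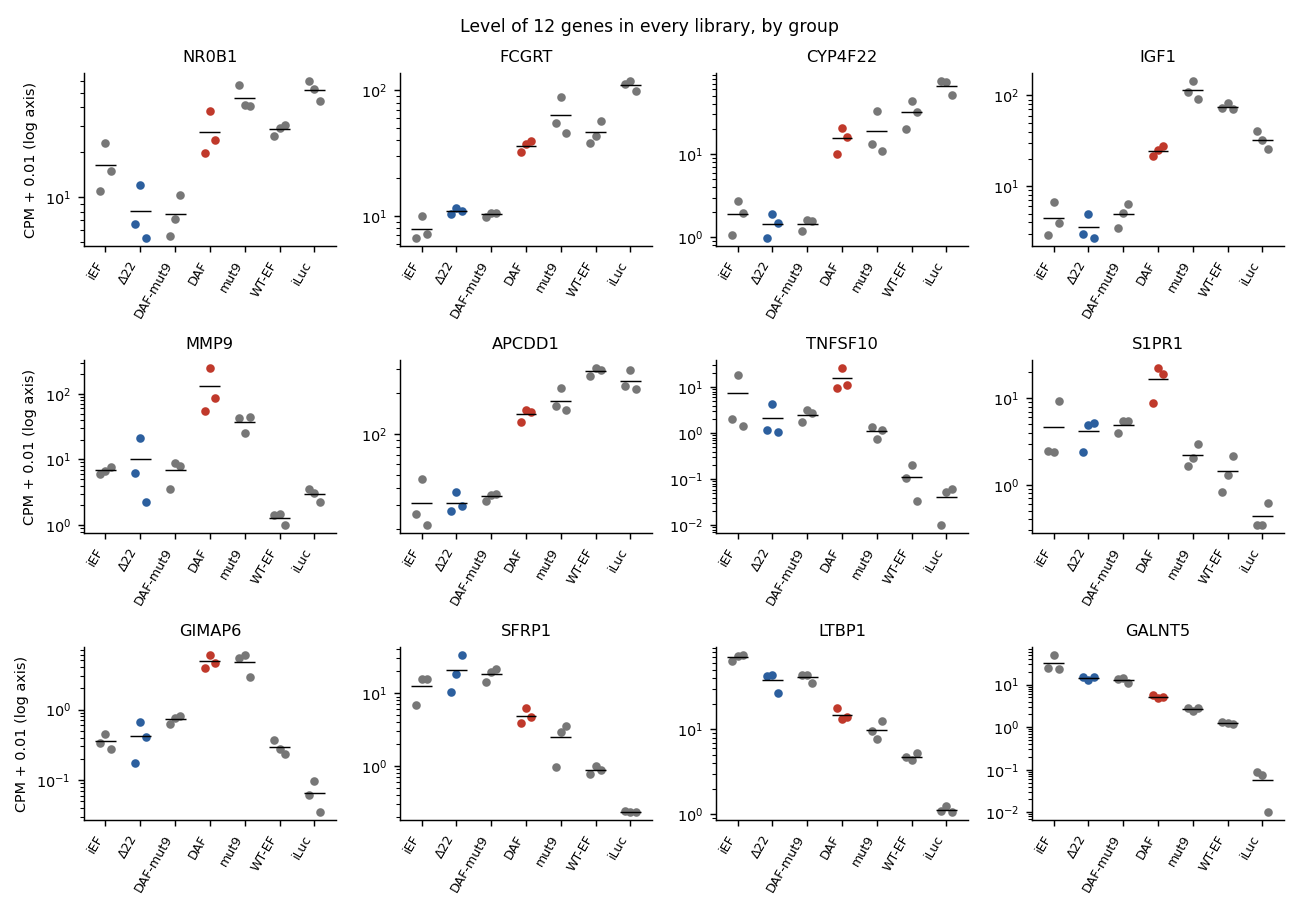
Points are single libraries of 12 genes, with the 7 groups on the x axis, CPM + 0.01 on a logarithmic y axis and a black line at the mean of each group. Red points are DAF and blue points Δ22. NR0B1, FCGRT, CYP4F22, IGF1 and APCDD1 were higher in DAF and in iLuc than in Δ22, TNFSF10 and S1PR1 were highest in DAF and lowest in iLuc, and SFRP1, LTBP1 and GALNT5 fell from Δ22 to DAF and further to iLuc.

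Of 31 genes that the fusion is known to repress, 0 rose and 1 (3.23%) fell, beside 0.183% lowered over all genes, and the median log2 difference was 0.10. Most of the list leaned the other way, with 22 of the 31 (71.0%) above 0, beside 47.3% of all genes tested. The gene that fell was GALNT5, an enzyme that starts O-linked glycans, from 15, 12.6 and 14.8 CPM in Δ22 to 5.57, 4.85 and 5.19 CPM in DAF (log2 −1.45 ± 0.23, adjusted p = 0.00167). TGFBR2, a TGF-beta receptor, was at 195, 226 and 210.1 CPM in DAF and 173, 214 and 199.9 CPM in Δ22. IGFBP3, which binds insulin-like growth factors, was at 5519, 4506 and 3566 CPM and 6414, 6167 and 4599.8 CPM. LOX, which crosslinks collagen, was at 213, 179 and 125 CPM and 265, 231 and 212 CPM. The groups overlapped in all 3 genes, with log2 differences of 0.10 ± 0.18 (adjusted p = 0.954), −0.34 ± 0.23 (adjusted p = 0.77) and −0.45 ± 0.25 (adjusted p = 0.696). LOX passed the threshold when only the 6 libraries were fitted (adjusted p = 0.0268), and IGFBP3 and LOX passed it with no filter on low counts (0.0495 and 0.0297).

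The 15 most raised genes of the naming rule had varied roles, and MMP9 was among them. MMP9, a gelatinase of the extracellular matrix, was at 55.5, 248 and 85.5 CPM in DAF and 6.17, 21.6 and 2.22 CPM in Δ22. All DAF libraries were above all Δ22 libraries, with the second replicate set highest in both groups, and the fitted difference was 13.3-fold (log2 3.73 ± 0.52, adjusted p = 0.000338). WT-EF held 1.28 ± 0.262 CPM, iLuc 2.95 ± 0.632 CPM and mut9 37.8 ± 10.9 CPM, so that DAF was the highest of the 7 groups. An antisense gene, SLC12A5-AS1, shares exon sequence with MMP9, and without a stated strand setting their reads cannot be told apart.

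IGF1, the insulin-like growth factor that signals through IGF1R in Ewing sarcoma, stood at 21.7, 24.8 and 27.6 CPM in DAF and 2.96, 4.93 and 2.65 CPM in Δ22, a 7.18-fold difference (log2 2.84 ± 0.25, adjusted p = 1.62e-06). Its exons overlap the long antisense RNA HELLPAR. The peptide ligand APELA, which acts on the apelin receptor, was at 3.74, 6.75 and 6.44 CPM against 0.411, 0.963 and 0.454 CPM (log2 3.24 ± 0.34, adjusted p = 1.51e-05). In both genes the spread between libraries of a group was small beside the gap between the groups. ISM2, a secreted isthmin, rose 17.4-fold from 0.247, 0.435 and 0.454 CPM to 5.98, 6.45 and 6.79 CPM. RSPO2, a secreted amplifier of Wnt signalling, rose 3.96-fold to 16.0, 13.1 and 13.4 CPM (log2 1.98 ± 0.25, adjusted p = 0.000116).

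Ligands of the immune system were among them too. The death ligand TNFSF10 was at 9.44, 26.2 and 11.2 CPM in DAF and 1.15, 4.35 and 1.04 CPM in Δ22 (log2 2.97 ± 0.52, adjusted p = 0.00351), and the chemokine CXCL9 at 8.21, 31.0 and 12.04 CPM and 1.48, 6.33 and 1.19 CPM (log2 2.57 ± 0.47, adjusted p = 0.00563, lost without DAF 2 or Δ22 3 at 0.0543 to 0.066). Both genes were highest in the second replicate set of each group. iEF itself varied widely for TNFSF10, with 7.35 ± 9.79 CPM. CXCL9 did not pass with limma on the ComBat-adjusted values (adjusted p = 0.241). Neither TNFSF10 nor CXCL9 passed edgeR's test without the replicate set in the model (adjusted p = 0.0881 and 0.0879).

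Raised enzymes included CYP4F22, a fatty acid hydroxylase of the skin barrier, at 9.96, 20.6 and 15.9 CPM in DAF and 0.960, 1.93 and 1.49 CPM in Δ22 (log2 3.40 ± 0.29, adjusted p = 1.43e-06). PHOSPHO1, a phosphatase of mineralising bone, was at 20.7, 19.5 and 21.2 CPM against 3.92, 3.99 and 4.09 CPM (log2 2.36 ± 0.18, adjusted p = 5.91e-07). The next genes were singled out after their values were seen. APCDD1, a membrane inhibitor of Wnt signalling, was at 122, 149.6 and 144.7 CPM against 26.9, 37.3 and 29.4 CPM (log2 2.16 ± 0.16, adjusted p = 3.18e-07). CES1, a carboxylesterase of the liver, was at 94.9, 105 and 106 CPM against 20.3, 33.9 and 22.6 CPM (log2 2.03 ± 0.17, adjusted p = 1.62e-06), and its pseudogene CES1P1 rose by 2.34 ± 0.50 (adjusted p = 0.0219, lost without DAF 1 or 3 or Δ22 1 or 3 at 0.0536 to 0.147) with it. LPL, the lipase that clears triglycerides from lipoproteins, was at 18.6, 31.0 and 23.0 CPM against 4.58, 7.79 and 4.34 CPM (log2 2.11 ± 0.25, adjusted p = 5.27e-05). ABI3BP, a matrix protein, was at 90.4, 159 and 90.9 CPM against 25.9, 31.9 and 21.8 CPM (log2 2.08 ± 0.27, adjusted p = 0.00014).

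TNNT1, the slow skeletal troponin T, rose 6.30-fold to 20.4, 50.3 and 33.3 CPM, with Δ22 at 2.93, 5.80 and 7.78 CPM. GMFG, an actin regulator of blood cells, rose 4.97-fold to 5.21, 7.14 and 6.63 CPM, with Δ22 at 1.26, 1.44 and 1.11 CPM. EXOC3L1, an exocyst-related gene, rose 4.82-fold. LOXHD1, a gene of inner ear hair cells, rose 5.96-fold to 3.25, 6.54 and 5.50 CPM.

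Channels and transporters were read against a share of 0.789% raised and 0.183% lowered over all genes tested. Among the 16417 protein-coding genes tested, 202 rose and 51 fell, so the background for these lists is higher. Of 144 ion channel subunits other than potassium channels, 4 (2.78%) rose and 1 fell, with a median log2 difference of 0.12. GRIK2, a kainate receptor subunit, was at 51.2, 81.1 and 63.4 CPM in DAF and 25.8, 31.7 and 20.7 CPM in Δ22 (log2 1.32 ± 0.14, adjusted p = 1.19e-05). GRIA2, an AMPA receptor subunit, was at 7.01, 5.03 and 2.88 CPM against 0.850, 0.665 and 0.985 CPM (log2 2.62 ± 0.40, adjusted p = 0.00103). GABRA4, a GABA receptor subunit, was at 0.900, 4.25 and 2.38 CPM against 0.0274, 0.0917 and 0.177 CPM, and the Δ22 values rest on a handful of counts. CLCN5, a chloride transporter of endosomes, rose 1.69-fold (log2 0.75 ± 0.11, adjusted p = 0.000432). The member that fell was ANO7 (−1.15, lost whichever library was omitted, at 0.0553 to 0.263).

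Of 85 potassium channel subunits, 3 (3.53%) rose and 1 fell, at a median of 0.04. KCNE4, an accessory subunit, was at 212, 169.9 and 178 CPM against 96.9, 128 and 66.3 CPM (log2 0.98 ± 0.18, adjusted p = 0.00563, lost without Δ22 3 at 0.0593). The small-conductance channel KCNN1 (1.31, lost without Δ22 3 at 0.0543) and the voltage-gated KCNA2 (1.08, lost without DAF 3 or Δ22 1 at 0.0584 to 0.0723) rose, and the intermediate-conductance KCNN4 (−0.94, lost without DAF 2 or 3 or Δ22 2 or 3 at 0.071 to 0.156) fell. Of 337 solute carriers, 8 (2.37%) rose and 1 fell, at a median of 0.05. SLC15A2, a peptide transporter, was at 11.9, 8.59 and 9.19 CPM against 1.43, 2.15 and 3.11 CPM (log2 2.18 ± 0.31, adjusted p = 0.000384). SLC18B1, a polyamine transporter of vesicles, rose 2.37-fold (log2 1.25 ± 0.22, adjusted p = 0.004) and SLC24A3, a sodium and calcium exchanger, 1.84-fold (log2 0.88 ± 0.15, adjusted p = 0.00304). KCNA2, SLC15A2 and SLC18B1 did not pass with limma on the ComBat-adjusted values (adjusted p = 0.196, 0.113 and 0.0618).

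Of 34 synaptic vesicle genes 2 (5.88%) rose and 0 fell, at a median of 0.04. SV2B, a synaptic vesicle glycoprotein, was at 3.47, 8.56 and 4.94 CPM in DAF and 0.192, 0.435 and 0.278 CPM in Δ22 (log2 4.17 ± 0.54, adjusted p = 0.000158), the largest log2 change among raised genes of at least 5 CPM that met the naming rule. SLC17A7, a vesicular glutamate transporter, was at 0.955, 1.45 and 0.938 CPM against 0.247, 0.183 and 0.404 CPM (log2 2.03 ± 0.37, adjusted p = 0.00493, lost without DAF 2 or Δ22 2 at 0.0501 to 0.0616). Of 73 axon guidance genes, 2 (2.74%) rose and 2 (2.74%) fell, at a median of 0.02. The receptors EPHB3 and ROBO2 rose, by 2.18 ± 0.34 (adjusted p = 0.00124) and 1.21 ± 0.19 (adjusted p = 0.00149) on the log2 scale, and the receptor PLXNA4 and the ligand SEMA3D fell by 1.33 ± 0.30 (adjusted p = 0.0287, lost whichever library was omitted, at 0.0543 to 0.231) and 0.70 ± 0.16 (adjusted p = 0.0418, lost without DAF 1, 2 or 3 or Δ22 2 or 3 at 0.0855 to 0.308). ROBO2 was at 95.5, 63.5 and 66.0 CPM in DAF, 31.0, 31.4 and 34.3 CPM in Δ22 and 10.02 ± 2.73 CPM in iEF, so that Δ22 itself was above iEF by 1.69 ± 0.20 (adjusted p = 0.000158). PLXNA4 did not pass with limma on the ComBat-adjusted values (adjusted p = 0.382).

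Of 164 developmental transcription factors 3 (1.83%, beside 0.789% of all genes) rose and 0 fell, with a median of 0.07. Among the 16417 protein-coding genes tested, a closer background for such lists, 202 rose and 51 fell. The raised members were MSX1 (0.79, lost whichever library was omitted, at 0.0609 to 0.209), SOX6 (0.63, lost without DAF 1, 2 or 3 or Δ22 1 or 2 at 0.0578 to 0.271) and PAX7. Genes typical of endothelial cells, many of them ETS targets, gave 3 raised (9.38%) and 0 lowered of 32, at a median of 0.48. S1PR1, a receptor for sphingosine 1-phosphate, was at 8.90, 22.3 and 19.0 CPM against 2.36, 4.90 and 5.20 CPM (log2 2.01 ± 0.29, adjusted p = 0.000484), while FLT4, a VEGF receptor, and ENG, a TGF-beta coreceptor, rose by 2.05 ± 0.38 (adjusted p = 0.00639, lost without DAF 2 or Δ22 2 at 0.0506 to 0.0964) and 0.67 ± 0.15 (adjusted p = 0.0257, lost without DAF 1, 2 or 3 or Δ22 1 or 3 at 0.0775 to 0.181). PAX7 and FLT4 did not pass with limma on the ComBat-adjusted values (adjusted p = 0.2 and 0.0505).

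The lowered genes with the largest changes under the naming rule had varied roles. SFRP1, a secreted antagonist of Wnt ligands, was at 3.85, 6.15 and 4.72 CPM in DAF and 10.3, 18.6 and 33.7 CPM in Δ22 (log2 −1.98 ± 0.26, adjusted p = 0.00014). LTBP1, which stores latent TGF-beta in the matrix, was at 17.9, 13.1 and 13.9 CPM against 42.0, 43.6 and 27.0 CPM (log2 −1.33 ± 0.18, adjusted p = 0.000311). The DAF libraries lay within a narrow range below every Δ22 library in both genes. NPTX1, a neuronal pentraxin, was at 10.7, 5.55 and 6.66 CPM against 21.6, 11.96 and 42.6 CPM, a log2 difference of −1.54 ± 0.30 (adjusted p = 0.00906, lost without DAF 3 or Δ22 3 at 0.0645 to 0.087). PAMR1, a secreted protease-like protein, was at 26.9, 19.2 and 26.1 CPM against 60.7, 51.4 and 70.9 CPM (log2 −1.32 ± 0.26, adjusted p = 0.0106, lost without DAF 2 or 3 or Δ22 1 at 0.093 to 0.109). SPP1, the matrix protein osteopontin, had the largest change of the lowered genes above 5 CPM, at 18.1, 3.92 and 7.76 CPM against 138, 64.5 and 10.2 CPM (log2 −2.80 ± 0.49, adjusted p = 0.00332), but its groups overlapped, and it is named outside the naming rule. SFRP1, LTBP1 and PAMR1 did not pass with limma on the ComBat-adjusted values (adjusted p = 0.166, 0.378 and 0.321).

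Lowered metabolic and signalling genes were GLDC, the glycine decarboxylase, at 3.47, 1.93 and 2.63 CPM against 7.16, 6.51 and 9.49 CPM (log2 −1.53 ± 0.24, adjusted p = 0.00154), and G0S2, an inhibitor of fat breakdown, at 28.1, 13.9 and 19.3 CPM against 73.9, 68.6 and 57.7 CPM (log2 −1.69 ± 0.36, adjusted p = 0.0191, lost without DAF 1 or 2 or Δ22 1 or 3 at 0.0582 to 0.165). PCSK1, a prohormone convertase, was at 72.1, 19.0 and 32.4 CPM against 109, 79.7 and 83.2 CPM (log2 −1.26 ± 0.27, adjusted p = 0.0185, lost without DAF 2 or 3 or Δ22 2 or 3 at 0.0798 to 0.157). In iEF PCSK1 held 23.6 ± 8.04 CPM, below every Δ22 library. DGKI, a diacylglycerol kinase, and MYH15, a myosin heavy chain, fell by 1.51 ± 0.34 (adjusted p = 0.0302, lost without DAF 2 or 3 or Δ22 1, 2 or 3 at 0.0557 to 0.268) and 1.23 ± 0.20 (adjusted p = 0.00153) on the log2 scale. The other genes of the naming rule, with their log2 differences, were KIAA0040 (−1.25, lost without DAF 1, 2 or 3 or Δ22 1 or 2 at 0.058 to 0.196), SAMD3 (−1.21), the divergent transcript SH3TC2-DT (−1.23, lost without DAF 2 or 3 or Δ22 1 or 3 at 0.0651 to 0.122) and the non-coding gene ENSG00000224865 (−1.47, lost without DAF 2 or 3 or Δ22 1 at 0.0532 to 0.0772). SERPINE2, a protease inhibitor, was at 973, 709 and 777 CPM against 1185, 1429 and 1456 CPM (log2 −0.72 ± 0.15, adjusted p = 0.0209, lost without DAF 2 or 3 or Δ22 2 or 3 at 0.0771 to 0.201), and was chosen after its values were seen. PCSK1, DGKI, SAMD3 and SH3TC2-DT did not pass with limma on the ComBat-adjusted values (adjusted p = 0.228, 0.252, 0.215 and 0.483).

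Signalling and matrix lists had calls in both directions, beside 0.789% raised and 0.183% lowered over all genes. Among the 16417 protein-coding genes tested, 202 rose and 51 fell. Of 44 TGF-beta and BMP genes, 2 (4.55%) rose and 2 (4.55%) fell, at a median of −0.04. The ligand TGFB1 was at 54.6, 52.6 and 45.6 CPM against 31.2, 31.8 and 28.6 CPM (log2 0.73 ± 0.12, adjusted p = 0.00272), and BMP6 fell by 0.92 ± 0.18 (adjusted p = 0.00955, lost without DAF 2 or 3 or Δ22 3 at 0.0591 to 0.102). Of 52 Wnt genes 1 (1.92%) rose and 2 (3.85%) fell, at a median of −0.19, with a log2 difference of −0.94 ± 0.21 (adjusted p = 0.0293, lost without DAF 2 or 3 or Δ22 1 or 2 at 0.0856 to 0.285) for the ligand WNT5A, which fell beside SFRP1 while RSPO2 rose. Of 56 collagens and laminins 1 (1.79%) rose and 2 (3.57%) fell, at a median of −0.07, namely COL8A1 (0.73, lost without DAF 1, 2 or 3 or Δ22 2 or 3 at 0.0595 to 0.171), COL13A1 (−0.97, lost without DAF 2 or Δ22 1 or 2 at 0.0588 to 0.106) and COL14A1 (−2.38, lost without DAF 1 or 2 or Δ22 1 or 2 at 0.114 to 0.278). Of 58 matrix proteases and inhibitors, MMP9 and ADAMTS4 (3.45%) rose and 0 fell, at a median of −0.08. ADAMTS4, which cuts aggrecan, was at 128, 153 and 95.4 CPM against 56.1, 72.3 and 64.5 CPM (log2 0.97 ± 0.20, adjusted p = 0.0151, lost without DAF 1 or 2 or Δ22 1, 2 or 3 at 0.0596 to 0.126). Of 63 integrins and cadherins 1 rose, CDH11 (0.52, lost without DAF 1, 2 or 3 or Δ22 1 or 2 at 0.101 to 0.287), and 1 fell, ITGA10 (−0.96, lost without DAF 1, 2 or 3 or Δ22 1 or 3 at 0.067 to 0.116), at a median of 0.15. ETV1, an ETS factor, was the single call among 26 ETS factors and among 38 FGF and MAPK genes, at 57.3, 34.2 and 40.5 CPM against 88.2, 75.3 and 80.3 CPM (log2 −0.91 ± 0.16, adjusted p = 0.00502, lost without DAF 2 at 0.0595), and PCSK1 that among 28 neuropeptide and granule genes. BMP6, COL8A1 and ITGA10 did not pass with limma on the ComBat-adjusted values (adjusted p = 0.0941, 0.229 and 0.589).

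No gene was called in 6 lists by edgeR's test. These were 45 cell cycle genes (median log2 difference −0.13, 0 at an unadjusted p below 0.05), 28 inflammatory genes (0.31 and 3), 33 interferon-stimulated genes (−0.06 and 4), 33 SRF and YAP targets (0.09 and 3), 31 genes of cholesterol and fatty acid synthesis (−0.08 and 2) and 34 genes of amino acid supply (0.06 and 0). Of the cell cycle genes 3 of 45 had a difference above 0, beside 47.3% of all genes tested.

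A comparison with the iEF cells, which hold the same shRNA and no cDNA, showed on which side the change lay. DAF and Δ22 were both set against the same iEF libraries, so their values are given side by side without a test between them. FCGRT differed from iEF by 2.21 ± 0.18 (adjusted p = 2.34e-07) on the log2 scale in DAF and by 0.48 ± 0.18 (adjusted p = 0.205) in Δ22. APCDD1 differed by 2.20 ± 0.16 (adjusted p = 6.01e-08) in DAF and 0.03 ± 0.15 (adjusted p = 0.963) in Δ22. For FCGRT and APCDD1 DAF stood above iEF and Δ22 near it. Other raised genes went otherwise. For NR0B1, as given above, Δ22 was called below iEF and DAF was not called against it. For ROBO2 Δ22 itself was above iEF. Among lowered genes, LTBP1 differed from iEF by −2.26 ± 0.19 (adjusted p = 2.43e-07) in DAF and −0.93 ± 0.18 (adjusted p = 0.00817) in Δ22, and GALNT5 by −2.61 ± 0.24 (adjusted p = 9.14e-07) and −1.17 ± 0.23 (adjusted p = 0.00829). Both constructs were below iEF there, DAF further than Δ22. PCSK1 differed by 0.70 ± 0.27 (adjusted p = 0.128) in DAF and 1.97 ± 0.27 (adjusted p = 0.000705) in Δ22. Over the called genes, which were chosen for a difference between DAF and Δ22, 239 of 241 raised genes had a higher mean in DAF than in iEF and 109 a lower mean in Δ22 than in iEF. Of the 56 lowered genes 53 had a lower mean in DAF than in iEF and 35 a higher mean in Δ22. These counts share libraries with the choice of the genes and are a description only.

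The comparison of iLuc with iEF shows what the endogenous fusion does in the same line and shares no library with DAF or Δ22. It called 18.7% of all genes higher and 22.4% lower in iLuc. Among the 241 genes raised in DAF, 154 (63.9%) were called higher in iLuc, 54 (22.4%) were called lower and 33 were not called. Among the 56 lowered genes, 42 (75.0%) were called lower in iLuc and 4 (7.14%) higher. Of the lowered genes the share called lower in iLuc was above the background of 22.4%, and the share of the raised genes called lower was at that background.

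WT-EF against iEF, which called 11.4% of genes higher and 16.9% lower, gave 154 of the raised genes (63.9%) higher and 47 of the lowered (83.9%) lower. mut9 against iEF, with 6.22% higher and 8.33% lower in all, gave 183 of the raised genes (75.9%) higher and 46 of the lowered (82.1%) lower. Its share of raised genes with a positive sign was 90.9%, beside 51.8% of all genes. DAF-mut9 against iEF, with 1.26% and 2.14% in all, gave 40 raised genes (16.6%) higher and 2 lowered genes (3.57%) lower. These 4 comparisons share the iEF libraries with each other. The DAF-mut9 values rest on reading the columns named mut9d as that group.

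**Figure D4:**
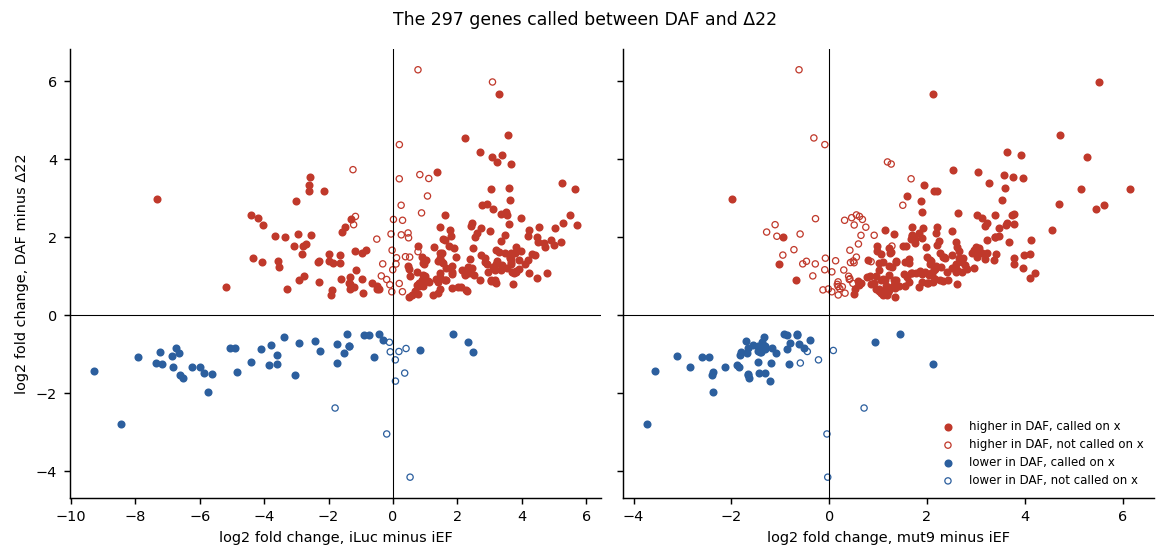
The 297 genes called between DAF and Δ22 are plotted by their log2 fold change in that comparison (y axis) against the log2 fold change of iLuc minus iEF (left) and of mut9 minus iEF (right). Red genes were higher and blue genes lower in DAF, and filled points were called on the x axis too. On the left the red points lie on both sides of 0, with 154 called higher and 54 called lower, while on the right 183 are called higher and 4 lower.

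The part of the differences between DAF and Δ22 that followed those made by the endogenous fusion was small. Over the 12560 genes called between iLuc and iEF, the slope of DAF minus Δ22 on iLuc minus iEF was 0.0627, 0.0420 and 0.0619 in the 3 replicate sets, with a mean of 0.0555 ± 0.0117 (SD). It was 0.125 ± 0.0453 over the 5727 genes higher in iLuc and 0.0490 ± 0.0249 over the 6833 genes lower in iLuc. The correlation across these 12560 genes, which are not independent replicates, was 0.220, 0.145 and 0.201. At such correlations the slope gives the shared part of the differences and not their whole size. Genes that moved the opposite way lower it.

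The 154 genes raised by both DAF and the endogenous fusion had a median level of 4.20 CPM in Δ22, 11.5 CPM in DAF, 18.7 CPM in WT-EF, 20.1 CPM in mut9 and 28.0 CPM in iLuc. Of these 139 were higher in WT-EF than in iEF and 147 higher in mut9. CES1 and APCDD1 are examples with 235 CPM and 244 CPM in iLuc. The 42 genes lowered by both had a median of 25.3 CPM in Δ22, 10.9 CPM in DAF, 8.33 CPM in mut9, 4.78 CPM in WT-EF and 0.578 CPM in iLuc. DAF stood between Δ22 and the active constructs in both sets of medians. The order of DAF and Δ22, and of iLuc and iEF, was fixed by the choice of these genes. Over all 241 raised genes, 126 had a DAF mean at or above that of WT-EF.

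The 54 genes raised in DAF but lower in iLuc than in iEF had a median of 4.10 CPM in Δ22, 10.6 CPM in DAF, 4.18 CPM in iEF, 1.57 CPM in WT-EF and 0.690 CPM in iLuc. WT-EF called 26 of them lower and 6 higher, and mut9 called 3 lower and 19 higher. They included S1PR1, TNFSF10, CXCL9, TGFB1, ENG, COL8A1 and ADAMTS4. ABI3BP, with 113 ± 39.3 CPM in DAF, 26.5 ± 5.09 CPM in Δ22 and 4.03 ± 0.592 CPM in iLuc, is an example.

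**Figure D5:**
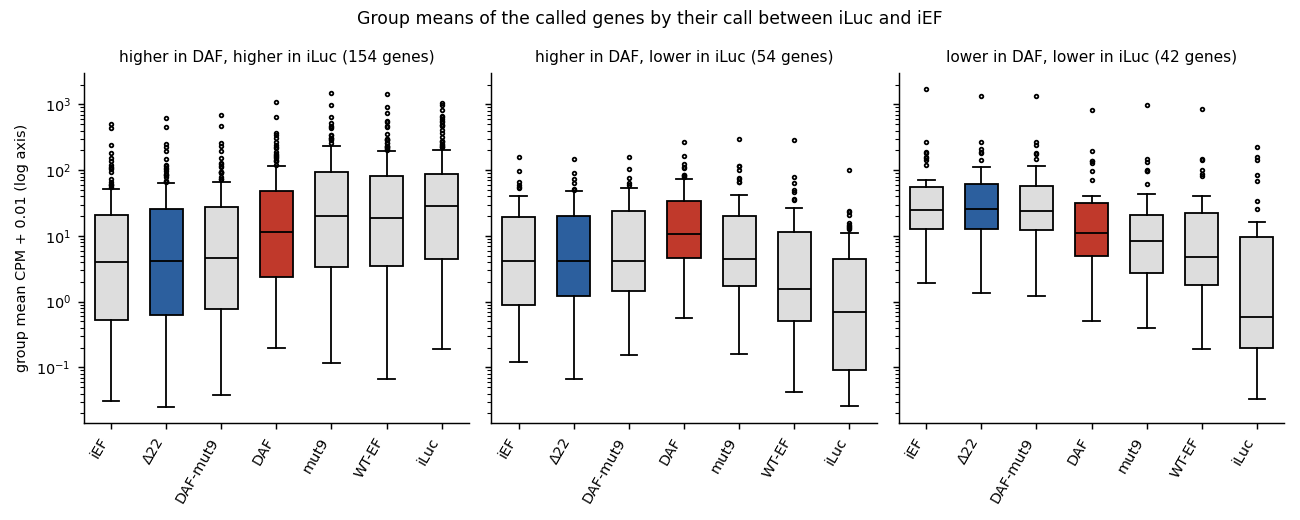
Boxes give the group mean CPM + 0.01 on a logarithmic axis of the 154 genes raised in DAF and in iLuc, the 54 raised in DAF and lower in iLuc, and the 42 lower in both, for all 7 groups. The line is the median, the box the quartiles and the points lie beyond 1.5 times the box length. iLuc and iEF are apart by the way the sets were made, and so are DAF (red) and Δ22 (blue). The medians of WT-EF are 18.7, 1.57 and 4.78 CPM from left to right.

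Among these 54 were genes usually expressed in blood cells, which were singled out after their values were seen. Of the 11 blood and epithelial markers tested, 2 were called higher in DAF and 9 were not called, at a median log2 difference of 0.09. GIMAP6, a GTPase of lymphocytes, was at 3.85, 5.94 and 4.597 CPM in DAF and 0.165, 0.665 and 0.404 CPM in Δ22 (log2 3.54 ± 0.32, adjusted p = 1.89e-06). In mut9 GIMAP6 was at 5.34, 5.87 and 2.91 CPM, so its level was not particular to DAF. LAPTM5, a lysosomal protein of blood cells, was at 7.39, 6.21 and 6.29 CPM against 1.54, 1.56 and 1.77 CPM (log2 2.02 ± 0.35, adjusted p = 0.00371). IL2RG, the shared chain of interleukin receptors, was at 5.40, 15.4 and 6.72 CPM against 1.54, 2.11 and 1.97 CPM (log2 2.26 ± 0.38, adjusted p = 0.00269), and JAK3, the kinase that binds it, at 11.7, 11 and 12.9 CPM against 4.06, 4.77 and 3.31 CPM (log2 1.59 ± 0.25, adjusted p = 0.00134). GIMAP5 (2.93), GIMAP8 (2.50), GMFG (2.31), TLR1 (1.38, lost without DAF 1, 2 or 3 or Δ22 1 or 3 at 0.0602 to 0.211) and CD14 (1.23, lost without DAF 1, 2 or 3 or Δ22 1 or 3 at 0.0524 to 0.181) rose as well, with the log2 differences given. The leukocyte marker PTPRC, in contrast, was at 0.6003, 0.754 and 0.407 CPM in DAF and 0.823, 0.871 and 0.631 CPM in Δ22 (log2 −0.40 ± 0.32, adjusted p = 0.836). GIMAP5, IL2RG, LAPTM5 and TLR1 share exon sequence with overlapping transcripts, so their counts are uncertain.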

How the data were processed

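RNA-seq libraries of A673 cells were compared, 3 per group. The authors aligned paired-end reads of ScriptSeq libraries to hg19 with STAR (version 2.5.1b per the labels) and counted them per Ensembl gene with HTSeq, in its intersection-strict mode. Which annotation release and which strand setting they used is not given in the sources used here. The deposited table holds raw counts for 57820 genes, and its 5 summary lines are empty. A second deposited table holds the same counts after the authors removed low genes and adjusted for the replicate set with ComBat, a signal with no scaling for library size that served only 1 alternative. A further table, with fold changes, standard errors and p-values of the authors' own comparisons, was not used. Groups came from the labels, and columns headed mut9d were taken to be DAF-mut9.

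Genes were kept where their counts averaged 1 or more over all 21 libraries (30549 of 48035 with any count). TMM-scaled counts were fitted in R 4.3.3 with edgeR 4.0.16 (glmQLFit and glmQLFTest) on group and replicate set, over all 21 libraries, with Benjamini-Hochberg adjustment over all genes tested and a threshold of 0.05. Replicate set entered the model since the authors adjusted their counts for it. Every adjusted p in the text comes from this model unless another is named. CPM values are TMM-scaled, and fold changes are fitted ones. Counts were simulated for DAF and Δ22 over 30549 genes with 200 changed. The changed genes were drawn from those with a higher mean count than the filter asked, and no replicate effect was simulated. There the model recovered 51.5% of 2-fold and 88% of 4-fold changes, and 3.74% and 2.76% of its calls were false. Replicates of a group differed by more than counting noise (chi-square per degree of freedom 31 to 64.9). Gene lengths were not used, so levels are compared only within a gene.

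Named genes were FLI1, EWSR1, NR0B1, NKX2-2, TGFBR2, IGFBP3, LOX, the 15 most raised and 15 most lowered called genes with at least 5 CPM, 1 direction in all 3 replicate sets and no overlap, and up to 4 called members per gene list. The comparison and the lists were chosen with earlier results of these data known. Gene symbols, starts and overlaps came from GENCODE release 44 mapped to GRCh37, and runs of GGAA from that genome. Alternatives were DESeq2 1.42.0, other scaling, filters and samples, limma 3.58.1 on the ComBat-adjusted values, no replicate set, and each library left out in turn. Text and tables were made with Python 3.11.15. Some items are not reported here.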

Additional observations from a re-analysis of the deposited data

How the results depend on the processing

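Against the 297 genes called (241 higher, 56 lower), 475 were called with DESeq2 (348 and 127), 906 with no low-count filter (616 and 290) and 682 with only the 6 DAF and Δ22 libraries (442 and 240). The share higher in DAF was 81.1% at first, 68.0% with no filter and 64.8% with the 6 libraries. Of the 297 genes 292, 294 and 285 were among those calls. Size factors by relative log expression gave 287 calls, filterByExpr 304 and limma on the ComBat-adjusted values 244. A further requirement of a 2-fold change left 28 lowered genes. Leaving out 1 library gave 170 to 224 calls, 137 to 189 of them higher and 12 to 35 lower. The cause of these shifts was not tested, though leaving out a library reduces the samples. The replicate numbers were tested for pairing: deviations from the group means of DAF and Δ22 libraries correlated at 0.505, 0.325 and −0.0126 for numbers 1, 2 and 3, so that the numbers mark shared variation for 2 of 3. Without the replicate block 178 genes were called, 164 higher and 14 lower, all 178 among the 297, and 92.1% were higher. TNFSF10 and CXCL9 were among the named genes not called then (adjusted p = 0.0881 and 0.0879). Also not called were G0S2, NPTX1, DGKI, PLXNA4, PCSK1, KIAA0040, SAMD3, SH3TC2-DT, ENSG00000224865, MSX1, SOX6, PAX7 and KCNA2. So were KCNN4, SEMA3D, COL13A1, ITGA10, CDH11, FLT4, BMP6, WNT5A, ETV1, CD14 and CD79A. Their adjusted p ran from 0.0524 for ETV1 to 0.289 for PCSK1.

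The share of raised genes that moved the same way in iLuc was 72.6% and ranged from 72.0% to 82.3% without 1 library, and that of lowered genes was 82.1% and ranged from 78.6% to 100%. The slope on iLuc minus iEF was 0.0555, 0.0596 over genes changed at least 2-fold and 0.0540 with a prior count of 0.5. GGAA runs of at least 6 copies were near 7.23% of raised and 1.05% of all genes, and runs of at least 3 copies near 13.2% and 4.37%. In a window of 1000 bases to each side the shares were 5.53% of raised, 0% of lowered and 0.504% of all genes. TGFBR2, not called, moved between −0.0233 and 0.1927 on the log2 scale when 1 library was left out, below 0 only without Δ22 replicate 1, and FLI1 stayed negative and not called under every alternative run. Of 75 named genes 33 kept their direction and side of the threshold under every alternative, and 0 called genes changed direction. In the simulation, whose changed genes left out the lowest counts, about 51.5% of 2-fold changes were found, so a gene not called may still differ.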

Other observations

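Pairs of neighbouring or overlapping transcripts were found among the genes raised in DAF, chosen here after their values were seen. FEZF1, a zinc finger repressor of the forebrain, rose by 1.41 ± 0.23 (adjusted p = 0.00158) on the log2 scale, and FEZF1-AS1, which starts next to it on the other strand, by 1.74 ± 0.24 (adjusted p = 0.00031). TRHDE, which degrades thyrotropin-releasing hormone, and TRHDE-AS1 rose by 2.00 ± 0.19 (adjusted p = 2.73e-06) and 1.61 ± 0.27 (adjusted p = 0.00272). SLC12A5, a neuronal chloride transporter beside MMP9, was at 1.06, 1.81 and 1.22 CPM in DAF and 0.411, 0.596 and 0.555 CPM in Δ22 (log2 1.37 ± 0.29, adjusted p = 0.0218, lost without DAF 1 or 2 or Δ22 1, 2 or 3 at 0.0506 to 0.174). Reads of such partners cannot be told apart where the exons overlap.

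ADGRL3, an adhesion receptor of neurons, had 0 counts in every Δ22 library and 0.109, 0.211 and 0.250 CPM in DAF, at least 2.53-fold higher than 3 counts per library would give. Its call had an adjusted p of 0.0301 and was lost whichever library was omitted, at 0.0688 to 0.171.

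RN7SL5P, a pseudogene of the signal recognition particle RNA, was called higher on the strength of 1 library, with 9.52, 924 and 2.81 CPM in DAF and 1.23, 3.32 and 3.64 CPM in Δ22 (log2 6.30 ± 1.43, adjusted p = 0.0326, lost without DAF 2 or Δ22 1, 2 or 3 at 0.0953 to 0.875).

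Of the 241 genes raised in DAF, 125 had a higher mean in DAF than in iLuc and 87 had their highest mean of the 7 groups in DAF.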
